A study of Mus musculus with 6 samples.

Results

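Cell division genes were followed in the carotid body, an oxygen-sensing organ beside the carotid artery, in 2 inbred mouse strains, A/J and DBA/2J. The list held 40 genes of DNA replication and mitosis, and a probe set belonged to a gene where the platform annotation gave that symbol alone. Of the 40 genes, 39 had such a probe set and Ccnb1 had none named for it alone. Together they were read by 84 of the 45101 probe sets of the Affymetrix Mouse 430 2.0 array, which measures RNA by hybridisation to short DNA probes.

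Each strain was represented by 3 arrays. Every array held RNA from the carotid bodies of a pool of 18 to 21 male mice aged 28 days from the Jackson Laboratory, 36 to 42 carotid bodies in all, with no treatment. Each pool was a separate set of mice, and the SDs and p-values therefore describe pools and do not cover single animals. The whole organ was taken: it holds oxygen-sensing type I cells, glia-like type II cells, vessels, nerve endings and connective tissue, and pieces of neighbouring tissue can come with it.

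A cell that divides first licenses its replication origins, when Cdc6 and Cdt1 load a ring of the Mcm2 to Mcm7 proteins that later unwinds the DNA, and geminin (Gmnn) then blocks a repeat of the loading. The clamp protein Pcna and enzymes of nucleotide supply serve DNA synthesis, while cyclins with their kinase Cdk1 drive the entry into mitosis. Mitotic kinases, motors and checkpoint proteins then sort the chromosomes, and the anaphase-promoting complex ends mitosis by marking cyclin B and securin for destruction. These genes are transcribed mainly in dividing cells and are low in resting tissue, and in adult carotid bodies division is known chiefly for its increase under long hypoxia.

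Levels are given as the deposited signal, a linear intensity with no unit, and ± marks the SD over 3 arrays of a strain. A difference is given as the DBA/2J mean less the A/J mean of log2(signal + 16), so 1 stands for about 2-fold at bright probe sets and understates the change of dim ones. The 27022 probe sets in the upper 60% by mean value, with a signal above about 114, were tested with limma (two-sided), and a probe set or gene was called where its p adjusted by Benjamini-Hochberg over all of them was under 0.05. A gene was represented by its brightest tested probe set. Signals were not compared between probe sets, since each binds its target with its own strength.

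The arrays had a common scale, with median signals of 164 to 183. Signal ratios of the 3′ to the 5′ end of Gapdh, a measure of RNA or amplification quality, ran from 1.73 to 4.87 and were highest on A/J array 2 and DBA/2J array 2 (3.28). The summed signal of 6 skeletal muscle markers made up 0.107% to 0.226% of the total on A/J arrays but 0.00153% to 0.00402% on DBA/2J arrays, and all 6 were called lower in DBA/2J. Type I cell markers held 0.0284% to 0.0354% on A/J arrays but 0.0743% to 0.0916% on DBA/2J arrays, and 3 of the 5 tested were called higher in DBA/2J; Th, the rate-limiting enzyme of catecholamine synthesis and a defining gene of these cells, read 2760.1 to 8415.8. Erythroid and adipocyte markers were also lower in DBA/2J, with 2 of 3 tested called in each list. No tested marker of T cells, B cells, macrophages, endothelium, fibroblasts or glia was called, and no marker of any list was listed at 0. Only 1 of 8 T cell markers and 2 of 4 B cell markers were tested, which says little about lymphocytes. All 4 macrophage markers had negative differences. How much these shifts in cell content and RNA quality contributed to the values below was not tested, and in whole tissue fewer cells of a type and less RNA per cell cannot be told apart.

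The cell division genes showed no common shift between the strains. Of the 84 member probe sets, 48 were bright enough to be tested and 36 were not, which left 31 of the 39 genes with a value. The tested genes are the brighter ones of the list and do not speak for the 8 genes that dropped out: Tyms, Tk1, Aurka, Plk1, Bub1, Bub1b, Ube2c and Kif20a. Of the 31 genes, 18 had a positive and 13 a negative difference, with a median of 0.02, against 0.03 over all 13006 genes tested. Their differences ran from -0.93 to 0.86. None of the 31 passed the test with limma (lowest adjusted p = 0.0771), where 3.77% of all genes did. At an unadjusted p under 0.05 there were 4, Cdc6 and Rrm2 higher and Mcm6 and Tpx2 lower in DBA/2J, and 17.1% of all genes reached that level. Among single probe sets, 1 of the 48 was called, a probe set of Mcm6 lower in DBA/2J, against 3.27% of all probe sets. These shares lie near or below the background and say nothing particular about the list.

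The series describes its own criterion as a 1.5-fold change in at least 6 of the 9 array pairs with a p under 0.05. With the unadjusted limma p standing in for that test, 9.36% of all probe sets met it. Among the member probe sets, 3 did: both tested Mcm6 probe sets, in 9 and 8 of 9 pairs, and the Cdc6 probe set in 9 of 9. All A/J signals of Cdc6 lay under the filter's level, so it was tested only through its higher DBA/2J signal.

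The arrays of the strains did not overlap for 4 of the 31 genes, against 22.7% of all genes. In DBA/2J all 3 arrays were higher for Cdc6 and Mad2l1, a direction seen for 13.0% of all genes. All 3 were lower for Mcm6 and Tpx2, as for 9.69% of all genes. The other 27 genes overlapped.

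The intervals give the range of strain differences that the values of each gene allow. For 25 of the 31 genes (80.6%), the 95% interval of the difference stayed within -1 and 1, a 2-fold change either way, and the same held for 71.8% of all genes. The exceptions were Gmnn, Mcm6, Mki67, Rrm2, Cdc6 and Birc5. The distance from an estimate to either end of its interval was 0.44 to 0.99. An estimate smaller than that distance for its gene could not be told from 0. These intervals are for single genes and are not adjusted for the number of probe sets tested. The rule for a call is stricter, and larger differences also went uncalled. Mcm6 at -0.93 is an example (95% interval from -1.46 to -0.39, limma adjusted p = 0.0771).

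**Figure D1:**
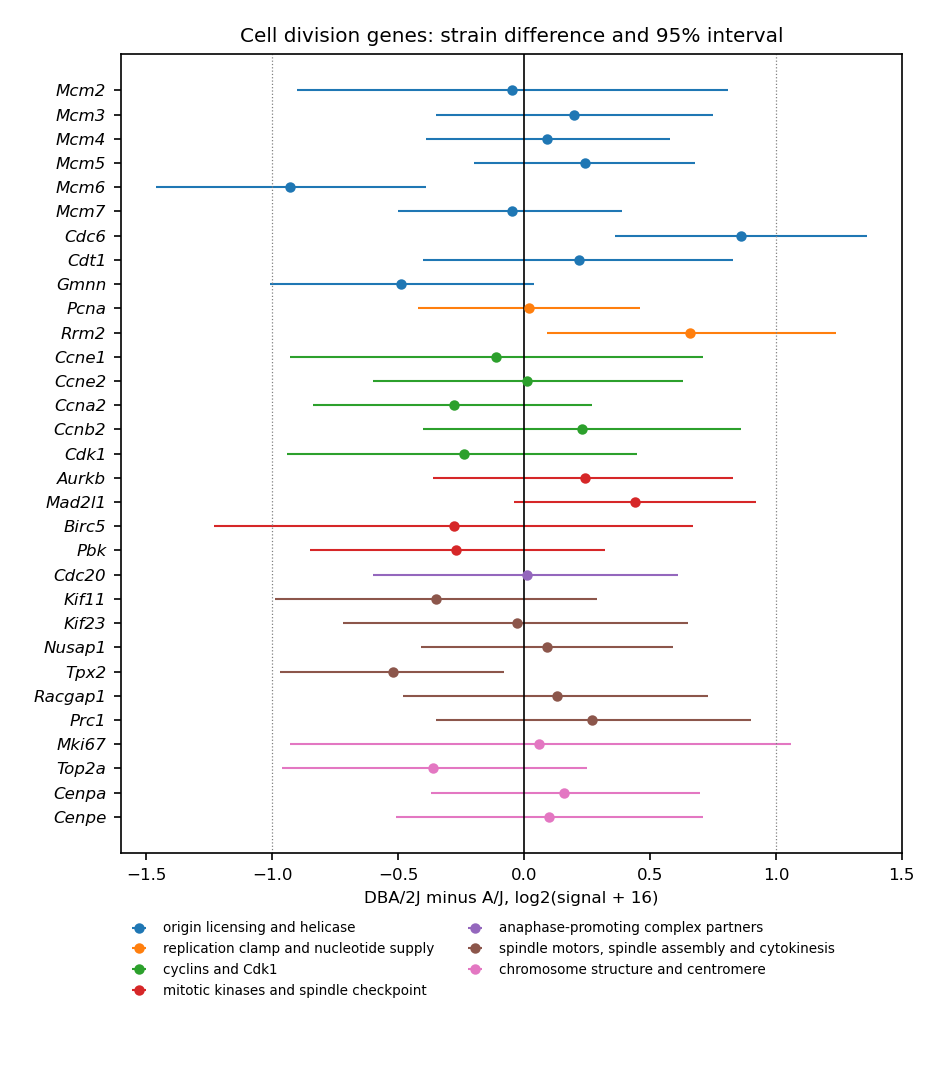
Difference between strains (DBA/2J minus A/J, log2 scale, horizontal axis) for the 31 tested cell division genes, grouped by role; points are estimates, bars their 95% intervals, and dotted lines a 2-fold change. Most intervals span 0, and Mcm6 at -0.93 and Cdc6 at 0.86 lie farthest out.

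Short DNA elements of cell cycle promoters, which the choice of genes did not use, were found in more of the members' promoters than of all promoters. E2F factors act on sites in genes of DNA replication. The DREAM and MuvB complexes act on the CHR element in genes of mitosis, often near CCAAT boxes bound by NF-Y. RefSeq promoter windows on GRCm38.p6, from 250 bases before to 50 after the start of a transcript, were found for 32 of the 40 genes (34 windows), and searched on both strands for E2F sites (TTTGGCGC, TTTGCCGC, TTTCGCGC or TTTCCCGC), the CHR (TTTGAA or TTTAAA) and the CCAAT box (CCAAT). An E2F site stood in 7 of the 34 windows (20.6%), against 2.27% of all 32841 windows. The CHR letters stood in 23 (67.6%) against 27.6%, and CCAAT in 26 (76.5%) against 37.4%. The E2F sites sat mainly with the genes of origin licensing, in 6 of their 8 windows: Mcm3, Mcm5, Mcm6, Mcm7, Cdc6 and Cdt1. Only Cdk1 had one outside that group. The CHR letters were in 2 of the 8 licensing windows and in all 4 of the chromosome genes, all 4 of the cyclins with Cdk1, and both partners of the anaphase-promoting complex. These are letter matches and were not tested for binding.

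The 150 bases before the start are printed for 3 licensing genes, including the gene with the called probe set, and for 3 genes of mitosis. They show which elements each gene holds in that stretch and not in its whole window. Capitals mark the matches to any of the 3 elements, on either strand. Mcm6 (chr1:128359706-128359855 on the minus strand) has 3 E2F matches, 2 of which overlap on opposite strands, and 2 CCAAT boxes. Cdc6 (chr11:98908001-98908150 on the plus strand) and Mcm5 (chr8:75109359-75109508 on the plus strand) come from the same group. Mcm5 has further matches outside the printed stretch, among them CHR letters 221 bases before the start and an E2F match 153 bases before it. Cdk1 (chr10:69352913-69353062 on the minus strand), Cdc20 (chr4:118437344-118437493 on the minus strand) and Top2a (chr11:99024190-99024339 on the minus strand) each hold the CHR letters and CCAAT boxes, and Cdk1 also the only E2F match outside the licensing genes. CCAAT boxes do not set the groups apart: they stood in 6 of the 8 licensing windows and in 4 of the 6 of the mitotic kinases and checkpoint genes.
Mcm6: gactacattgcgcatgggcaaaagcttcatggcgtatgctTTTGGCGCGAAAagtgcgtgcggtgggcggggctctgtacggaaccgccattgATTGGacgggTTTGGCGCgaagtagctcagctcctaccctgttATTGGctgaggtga
Cdc6: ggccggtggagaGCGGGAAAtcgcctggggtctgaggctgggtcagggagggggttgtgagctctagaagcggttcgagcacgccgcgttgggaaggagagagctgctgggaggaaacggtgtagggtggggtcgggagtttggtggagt
Mcm5: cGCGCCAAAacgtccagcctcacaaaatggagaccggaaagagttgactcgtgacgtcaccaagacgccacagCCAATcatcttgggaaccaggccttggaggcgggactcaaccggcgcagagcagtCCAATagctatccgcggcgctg
Cdk1: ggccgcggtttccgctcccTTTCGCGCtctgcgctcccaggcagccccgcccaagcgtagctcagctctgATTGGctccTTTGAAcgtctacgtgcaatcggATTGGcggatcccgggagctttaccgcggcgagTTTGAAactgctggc
Cdc20: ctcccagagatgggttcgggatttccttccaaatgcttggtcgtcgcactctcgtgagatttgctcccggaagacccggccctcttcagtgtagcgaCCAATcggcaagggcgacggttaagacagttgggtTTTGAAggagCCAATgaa
Top2a: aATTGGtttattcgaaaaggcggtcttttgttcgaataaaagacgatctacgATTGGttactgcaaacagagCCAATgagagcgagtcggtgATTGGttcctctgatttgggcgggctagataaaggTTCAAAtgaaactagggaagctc

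Mcm6, a subunit of the replicative helicase, gave the only called difference of the list. Its called probe set read 506.1, 646.7 and 531.2 on A/J arrays 1 to 3, and 106.5, 189.7 and 212.8 on DBA/2J arrays 1 to 3. The lowest A/J array thus stood more than 2-fold above the highest DBA/2J array. The means were 561 ± 75 for A/J against 169.7 ± 55.9 for DBA/2J (n = 3 each), a log2 difference of -1.68 with an SE of 0.27, a 95% interval from -2.29 to -1.07 and a limma adjusted p of 0.0109. The brighter Mcm6 probe set, which represents the gene in the counts above, read 497.4, 756.3 and 642.7 on A/J arrays 1 to 3, and 283.1, 405.2 and 286.3 on DBA/2J arrays 1 to 3. By the array maker's naming, its suffix (_x_at) marks probes that can match other transcripts, and the called probe set has no such suffix. It was also lower in every DBA/2J array, but by less and without passing the test: 632 ± 129.8 for A/J against 325 ± 69.6 for DBA/2J, log2 -0.93, SE 0.24, limma adjusted p = 0.0771. A dim probe set with 33, 7.9 and 12.6 in the A/J pools and 47.8, 28.9 and 11.8 in the DBA/2J pools was not tested. In a fit with no filter on dim probe sets it had a log2 difference of 0.42, the opposite sign. The size of the Mcm6 difference thus depended on the probe set. Leaving out A/J array 3 ended the call of the called probe set, at log2 -1.71 with a limma adjusted p of 0.0501, and so did leaving out A/J arrays 1 and 3, at log2 -1.89 with an adjusted p of 0.239.

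The lower Mcm6 signal in DBA/2J can be set against the other subunits of the same ring, none of which was called. The log2 signal of the called probe set minus the median of the other 5 subunits, each at its brightest probe set, was -0.07, -1.0 and -1.07 in A/J and -2.99, -1.80 and -2.50 in DBA/2J, so the strains were separate on this scale. For the brighter probe set the same values were -0.09, -0.78 and -0.80 in A/J and -1.70, -0.76 and -2.10 in DBA/2J, and DBA/2J array 2 fell inside the A/J range. All 5 comparison probe sets carry a suffix (_s_at or _x_at) that marks probes able to match more than a single transcript, as does the brighter probe set of Rrm2 and 1 of the 3 tested for Tpx2. Only the difference between strains carries meaning in these values, since levels depend on the probes. The called probe set was followed after its value was seen, and the same signals enter these values. Separation on this scale therefore adds no support to the call.

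Among the other helicase subunits no probe set passed the test. Mcm2 read 531.8, 1310.2 and 1134.2 in the A/J pools and 957.2, 585.2 and 1280.5 in the DBA/2J pools, and the strains spanned the same range (992 ± 408 for A/J against 941 ± 348 for DBA/2J, log2 -0.05, limma adjusted p = 0.975). Mcm5 read 499.2, 593.6 and 637.3 in the A/J pools and 755.7, 698.2 and 596.9 in the DBA/2J pools. Its highest DBA/2J arrays lay above A/J, but the third lay within it (log2 0.24, limma adjusted p = 0.654). The remaining subunits had log2 differences of 0.20 for Mcm3, 0.09 for Mcm4 and -0.05 for Mcm7. Mcm7 had 4 tested probe sets from -0.05 to 0.45, and the one at 0.45 was higher in every DBA/2J array, with 491, 506.1 and 461.6 in the A/J pools and 794.5, 538.1 and 702.7 in the DBA/2J pools, without passing the test (limma adjusted p = 0.345).

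The loading factor Cdc6 went the other way. It read 113.5, 106.1 and 110.1 on A/J arrays 1 to 3, and 244.2, 195.8 and 198.8 on DBA/2J arrays 1 to 3, and the lowest DBA/2J array stood well above the highest A/J array. The means were 109.9 ± 3.7 for A/J against 213 ± 27.1 for DBA/2J (n = 3 each), log2 0.86 with an SE of 0.22 and a 95% interval from 0.36 to 1.36. With a limma adjusted p of 0.0826 it did not pass the test. All A/J signals of Cdc6 lay under the filter's level, so it was tested only through its DBA/2J signal. The direction of Cdc6 therefore lends no support to a strain difference, here or in the counts above. Cdt1, its partner in loading, read 316.8, 371.1 and 327.2 in the A/J pools and 334, 608.3 and 303 in the DBA/2J pools. A single array, DBA/2J array 2, stood above the rest (log2 0.22, limma adjusted p = 0.785). Geminin, the inhibitor of Cdt1, had 680.5 ± 143 for A/J against 479 ± 94.8 for DBA/2J, log2 -0.49 (limma adjusted p = 0.372). Across the 9 licensing genes, 5 differences were positive and 4 negative, with a median of 0.09.

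**Figure D2:**
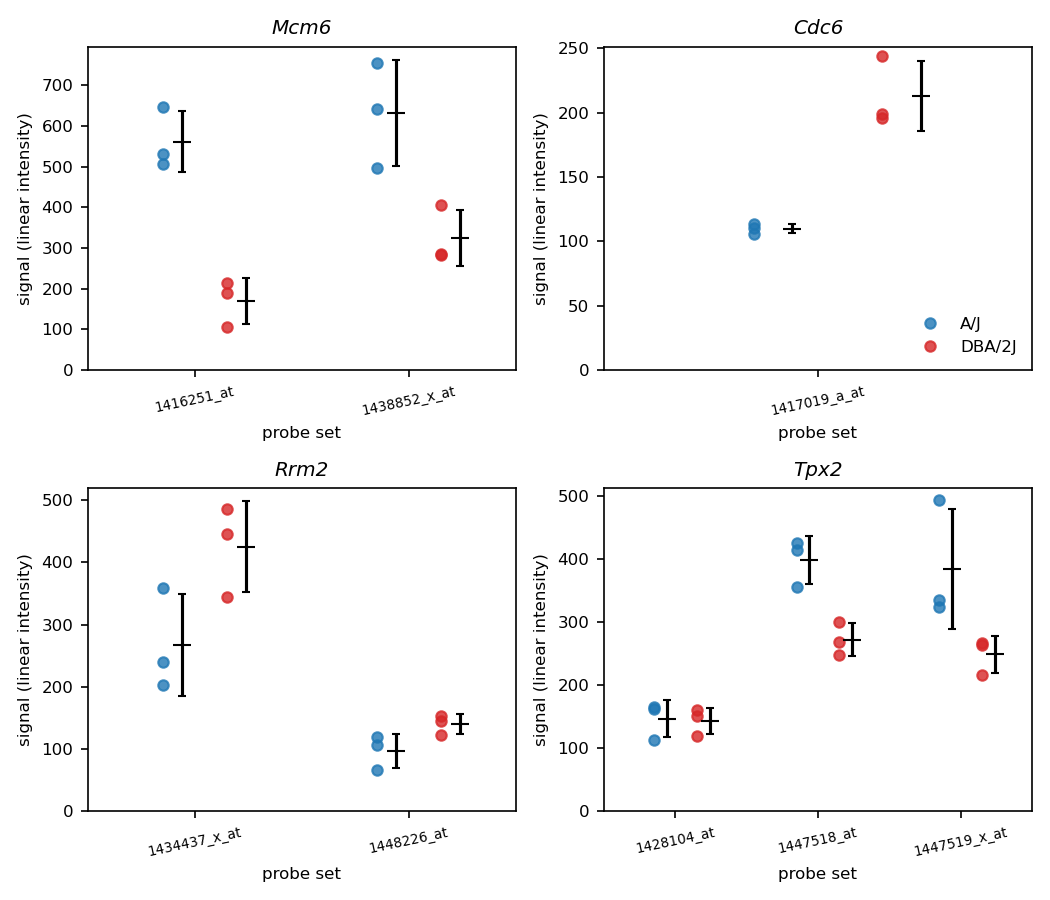
Signal (linear intensity, vertical axis from 0) on each array for the tested probe sets of Mcm6, Cdc6, Rrm2 and Tpx2, the 4 members with an unadjusted p under 0.05; points are arrays and bars the mean ± SD of 3. Both Mcm6 probe sets have every DBA/2J array below every A/J array, whereas 1 of the 3 Tpx2 probe sets shows no such gap.

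Among genes of DNA synthesis, the clamp Pcna was bright in both strains. It read 2091.5, 2630 and 2929.2 on A/J arrays 1 to 3, and 2984.1, 2434.3 and 2320.1 on DBA/2J arrays 1 to 3. The arrays of the strains overlapped, with 2550.2 ± 425 for A/J against 2579.5 ± 355 for DBA/2J, a log2 difference of 0.02 and a 95% interval from -0.42 to 0.46. Rrm2, the small subunit of ribonucleotide reductase that makes deoxynucleotides, read 203.1, 358.7 and 239.3 in the A/J pools and 445.8, 485.3 and 343.7 in the DBA/2J pools at its brighter probe set. The strains overlapped there, and the difference did not pass the test (267 ± 81.4 for A/J against 425 ± 73.1 for DBA/2J, log2 0.66, SE 0.26, limma adjusted p = 0.248). At its dimmer probe set it read 118.5, 105.9 and 65.6 in the A/J pools and 121.9, 152.5 and 144.6 in the DBA/2J pools. All DBA/2J arrays were above A/J there, again without passing the test (log2 0.49, limma adjusted p = 0.468). The A/J mean of this probe set, 96.7, lay under the filter's level, so it was tested only through its DBA/2J signal (139.7) and lends the direction no support. Tyms and Tk1, which make and salvage thymidylate, were too dim to test: Tk1 read 22.1, 89.6 and 47.2 in the A/J pools and 25.3, 34.4 and 66 in the DBA/2J pools.

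The cyclins and their kinase showed no strain difference beyond the spread. Ccne1, the cyclin that starts S phase, read 144, 397.9 and 347.8 in the A/J pools and 208.6, 232.9 and 327 in the DBA/2J pools. The lowest and the highest reading were both A/J, so the DBA/2J arrays lay inside the A/J range (log2 -0.11, limma adjusted p = 0.933). Cdk1 read 445.4, 307.8 and 210 in the A/J pools and 295.3, 310.3 and 185.2 in the DBA/2J pools, with a log2 difference of -0.24 (limma adjusted p = 0.792). Array 3 was lowest in both strains. Ccne2, Ccna2 and Ccnb2, the cyclins of S phase and mitosis, had log2 differences of 0.01, -0.28 and 0.23. For Ccna2 the other tested probe set had the opposite sign, at 0.17.

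Of the 8 mitotic kinases and checkpoint genes only 4 were bright enough. Mad2l1, which holds the checkpoint until chromosomes attach, read 293.8, 247.1 and 268.9 on A/J arrays 1 to 3, and 303.1, 383.7 and 441 on DBA/2J arrays 1 to 3. Every DBA/2J array lay above A/J, by a small margin at the nearest pair (269.9 ± 23.4 for A/J against 376 ± 69.3 for DBA/2J, log2 0.44, SE 0.21, limma adjusted p = 0.377). Birc5 (survivin), of the chromosomal passenger complex, read 169.5, 188.6 and 83.6 in the A/J pools and 132.2, 181.2 and 56.3 in the DBA/2J pools. The third array was lowest in both strains, and the 95% interval of the difference was wide, from -1.23 to 0.67. Its kinase partner Aurkb had a log2 difference of 0.24, and Pbk, another mitotic kinase, -0.27.

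The genes under the filter included some of the best known marks of mitosis. Aurka, the centrosome kinase, read 137.9, 81.9 and 93.3 in the A/J pools and 86.6, 152.1 and 77 in the DBA/2J pools. Plk1, which acts from mitotic entry to cytokinesis, read 80.6, 78 and 96.3 in the A/J pools and 55.8, 100.9 and 79.7 in the DBA/2J pools. Bub1b, of the mitotic checkpoint, read 21.4, 51.2 and 51.5 in the A/J pools and 69.4, 42 and 52.7 in the DBA/2J pools at its brightest probe set, and Ube2c, the E2 enzyme of the anaphase-promoting complex, read 124.7, 127 and 56.8 in the A/J pools and 93.9, 105.9 and 89.1 in the DBA/2J pools. In a fit with no filter on dim probe sets these had log2 differences of -0.01, -0.11, 0.33 and -0.02, and none passed the test in limma (adjusted p from 0.779 for Bub1b to 0.994 for Aurka). The other Bub1b probe sets gave -0.45 and -0.68 in that fit, the opposite sign. No detection call was used here, so whether these signals are above background is unknown. Cdc20, the activator of the complex, was bright enough and had 265 ± 63.6 for A/J against 268 ± 69.6 for DBA/2J (log2 0.01); its other tested probe set was erratic, at 259.5, 546.4 and 114.8 in the A/J pools and 434.1, 84.7 and 467 in the DBA/2J pools.

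The spindle and cytokinesis genes gave differences in both directions. Tpx2, which activates Aurka and nucleates microtubules, read 355.4, 415 and 424.6 on A/J arrays 1 to 3, and 300.6, 267.6 and 247.8 on DBA/2J arrays 1 to 3 at its brightest probe set. All DBA/2J arrays were lower, with 398 ± 37.5 for A/J against 272 ± 26.7 for DBA/2J, a log2 difference of -0.52 and an SE of 0.20, but the limma adjusted p was 0.228. Another Tpx2 probe set gave -0.58 and was lower in every DBA/2J array as well. The third gave -0.02, with strains overlapping. The size of the Tpx2 difference thus depended on the probe set. Kif11, the motor that pushes the spindle poles apart, read 192.8, 234.9 and 116.6 in the A/J pools and 147.4, 130.7 and 123 in the DBA/2J pools. The DBA/2J arrays lay inside the range of A/J (log2 -0.35, limma adjusted p = 0.647). Prc1, which bundles microtubules of the central spindle, read 328.1, 506.6 and 270.1 in the A/J pools and 512.9, 330.2 and 480.5 in the DBA/2J pools, again overlapping (log2 0.27). Nusap1, Racgap1 and Kif23, of the spindle midzone, had 0.09, 0.13 and -0.03. A further Nusap1 probe set, too dim to test, had 1.21 in the fit with no filter (unadjusted p = 0.00941, limma adjusted p = 0.182). That was the largest difference of the untested member probe sets, and it is named for that reason. Its signals were low, at 26.1, 3.1 and 7.1 in the A/J pools and 28.7, 55.5 and 55.6 in the DBA/2J pools.

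Chromosome and centromere genes include Mki67, the gene of the Ki-67 antigen used to stain dividing cells. It read 328.4, 715.9 and 183.2 on A/J arrays 1 to 3, and 542.5, 301.7 and 306.3 on DBA/2J arrays 1 to 3. The 2 extremes were both A/J arrays, and the difference was 0.06 with a 95% interval from -0.93 to 1.06. Top2a, the topoisomerase that untangles sister chromatids, read 318.2, 571.8 and 382 in the A/J pools and 334.4, 388.3 and 247 in the DBA/2J pools. The arrays of the strains overlapped (log2 -0.36, limma adjusted p = 0.622). Cenpa, the histone of the centromere, read 248.6, 370.6 and 241.4 in the A/J pools and 300.2, 378 and 280.9 in the DBA/2J pools and differed by 0.16 (limma adjusted p = 0.823), while its other tested probe set gave -0.27. Cenpe, a kinetochore motor, differed by 0.10.

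**Figure D3:**
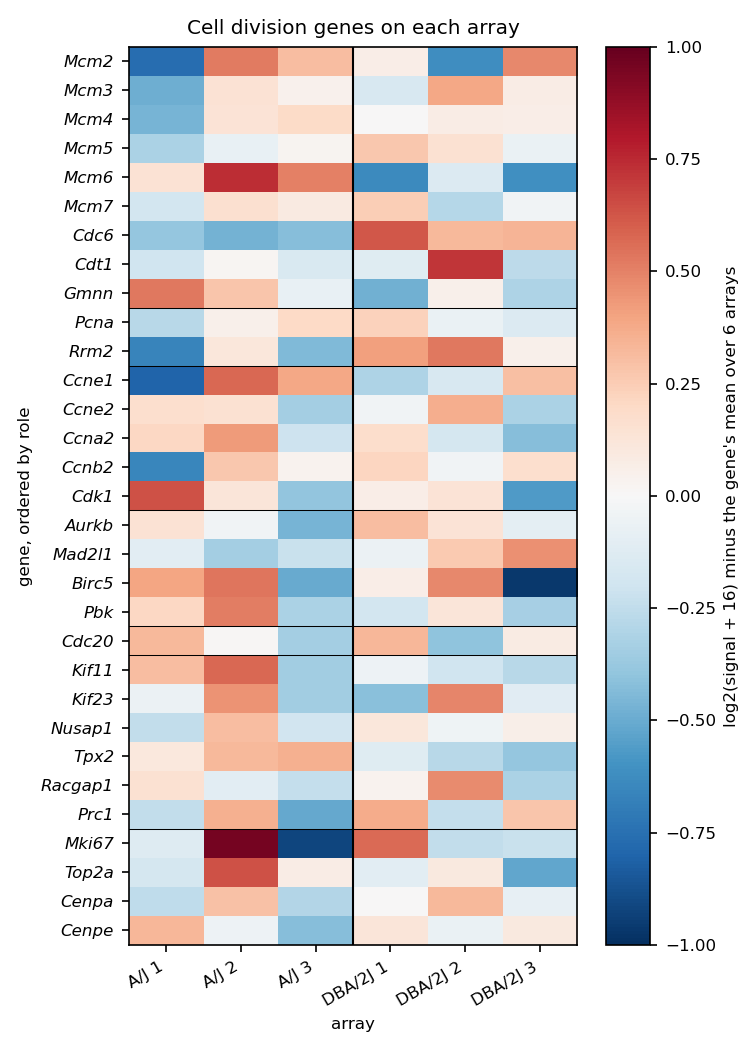
Deviation of each of the 31 tested cell division genes from its own mean over all arrays (log2 scale, colour) on each of the 6 arrays, grouped by role. A/J array 2 has the most members above their mean, 25 of 31, against 6367 of all 13006 genes. The median deviations of the A/J arrays run from -0.22 to 0.27.

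Single pools stood apart within a strain. The median deviation of the 31 genes from their own mean was -0.13, 0.27 and -0.22 on the A/J arrays and 0.07, 0.07 and -0.09 on the DBA/2J arrays, against -0.02 to 0.07 for all genes. On A/J array 2, 25 of the 31 were above their mean, against 6367 of all 13006 genes. On A/J array 3, 11 of the 31 were, against 6522 of all 13006 genes. A/J array 2 was the highest of all 6 for 11 members, whereas it was the highest for 15.0% of all genes. Its deviation was largest for the chromosome genes (0.47) and the spindle genes (0.34), and was 0.27 for the cyclins with Cdk1. The licensing genes stood lowest on A/J array 1, at -0.31. A/J array 2 also had the highest 3′ to 5′ ratio of Gapdh, 4.87; the part of RNA quality in its values was not tested. The within-strain SD of the members had a median of 0.31, against 0.27 for all genes.

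Where a gene had several tested probe sets, they did not always share a sign. Of 14 such members, 5 had differences of both signs, 4 had only positive and 5 only negative ones. Some of the opposed values were small, as for Mcm2 at -0.05 and 0.02.

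Other genes of the cell cycle were read from lists by role. Lists of 141 further genes were read in the same fit, of which 138 were on the array and 112 were tested: 62 had positive and 50 negative differences, with a median of 0.06. There were 2 called genes of the 112, Bub3 and Lin37, both higher in DBA/2J, against 3.77% called over all genes. Bub3, of the spindle checkpoint, read 4526.6, 4252 and 4037.6 on A/J arrays 1 to 3, and 7969.8, 6517.5 and 6779.2 on DBA/2J arrays 1 to 3, 4272 ± 245 for A/J against 7089 ± 774 for DBA/2J, with a log2 difference of 0.72, an SE of 0.16 and a limma adjusted p of 0.0394. Its other 2 probe sets gave 0.99 and 1.32. Lin37, of the MuvB core that holds cell cycle genes silent in resting cells, read 127.9, 204.9 and 342.3 on A/J arrays 1 to 3, and 763, 615 and 558.2 on DBA/2J arrays 1 to 3. The lowest DBA/2J array stood above the highest A/J array (225 ± 109 for A/J against 645 ± 106 for DBA/2J), with a log2 difference of 1.54, an SE of 0.32 and a limma adjusted p of 0.0351. Of the 6 fits that left out an array, Bub3 passed only in that without DBA/2J array 2, and Lin37 only in those without A/J array 3 or DBA/2J array 2. In the fits that failed, the limma adjusted p was 0.072 to 0.202 for Bub3 (log2 0.64 to 0.77) and 0.0769 to 0.163 for Lin37 (log2 1.22 to 1.64). Neither was called with no filter on dim probe sets (limma adjusted p = 0.0703 for Bub3 and 0.0596 for Lin37) or without A/J arrays 1 and 3 (0.489 and 0.174), and quantile normalization ended the call of Lin37 (0.0523) and a fit with no intensity trend that of Bub3 (0.0905).

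The list of other replication genes (39 tested of 43) had no called gene, 28 positive and 11 negative differences, and a median of 0.16. The polymerase subunit Pold2 (log2 0.70), the clamp loader Rfc2 (0.56) and the primase Prim1 (0.54) had the smallest p of that list, with limma adjusted p of 0.254 to 0.291. The median was 0.21 over the 13 genes of the G1 cyclins, kinases and pocket proteins, with no called gene; Ccnd2 had 0.54, Rbl1 0.53 and Rbl2 0.40. The CDK inhibitors and other brakes (14 tested) had a median of -0.04. There the cyclin G1 gene Ccng1, a p53 target, came nearest to the threshold at -0.70 (6829 ± 391 for A/J against 4218 ± 552 for DBA/2J, limma adjusted p = 0.055), and the inhibitor Cdkn2b had -0.83 and Cdkn2d 0.42. The transcription factors of the cell cycle (15 tested) had a median of -0.07 and Lin37 as the single call, with Mycn at 0.91 (limma adjusted p = 0.0836) and E2f2 at -0.32. The other mitotic genes (31 tested of 49) had a median of -0.04 and Bub3 as the single call, with the securin gene Pttg1 at -0.57 and the kinetochore gene Knl1 at -0.67. The other Pttg1 probe set had 0.58, the opposite sign. The DBA/2J mean of Knl1, 105, lay under the filter's level. Knl1 was thus tested only through its A/J signal (175), and its direction lends no support to a strain difference.

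**Figure D4:**
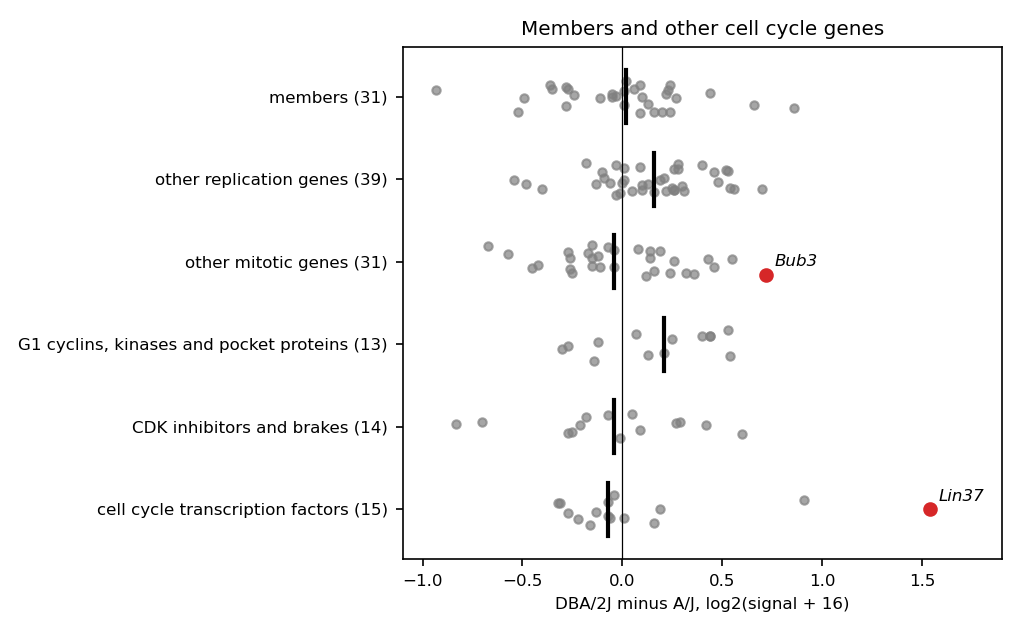
Difference between strains (DBA/2J minus A/J, log2 scale, horizontal axis) for the 31 tested cell division genes and for the tested genes of 5 further cell cycle lists; each point is a gene, the black bar the median of its list, and red points are genes that passed the test. The medians run from -0.07 to 0.21, and the only red points are Bub3 and Lin37.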

How the data were processed

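RNA from pooled carotid bodies was hybridised to 6 Affymetrix Mouse 430 2.0 arrays, 3 per strain. Per the labels' protocols, RNA was extracted with Trizol and amplified in repeated rounds of cDNA synthesis and in vitro transcription from the poly(A) end, which can lower probe sets far from the 3′ end. The deposited values are linear intensity signals from 0.1 to 27051.1, and the 2%-trimmed mean of each array is 500.0; software names were not given in the sources used here. No detection calls were used.

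Of 45101 probe sets, the platform annotation names 1 gene for 34958, several for 932 and none for 9211; 34754 of those with 1 gene matched a RefSeq table (GRCm38.p6), which was used for names. Without the 64 control probe sets, log2(signal + 16) was computed, and the upper 60% by mean were fitted with limma 3.58.1 in R 4.3.3 (lmFit, eBayes with intensity trend), with no covariate. The script was tested on simulated data, and figures were drawn with matplotlib 3.10.9. With 3 arrays per strain, their number limits the precision. Alternatives covered normalization, pseudocount, filter, variance model, pairing, the probe set of a gene and left-out arrays. Every array is given for members with an unadjusted p under 0.05 and for a set of well-known members named whatever their values. Mad2l1 and single probe sets of Mcm7, Cdc20 and Nusap1 were added after their values were seen. The others are summarised. From the other cell cycle lists, called genes and up to 3 per list with the smallest p are named. The members, lists and rules were chosen with earlier results of these data known.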

Additional observations from a re-analysis of the deposited data

How the results depend on the processing

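Over the settings tried, the count of called member genes (0 as reported, 4 at an unadjusted p under 0.05) became 3 with array weights (Mcm6, Rrm2 and Cdc6) and 1 with the mean of a gene's probe sets (Mcm6, log2 -1.30, limma adjusted p = 0.0108), and was 0 to 1 when an array was left out: without DBA/2J array 2, Mcm6 was called at log2 -1.09 with a limma adjusted p of 0.0337. The count of called member probe sets (1) was 6 with array weights and 0 without A/J arrays 1 and 3 (4 at an unadjusted p under 0.05), and 0 to 2 when an array was left out. The called Mcm6 probe set had log2 differences of -1.40 to -2.02 over 18 settings and was not called in 3 of them: without A/J array 3, without A/J arrays 1 and 3, and with the replicate block (log2 -1.47, limma adjusted p = 0.26). Over all genes, 883 probe sets were called as reported, 3007 with array weights, 78 without A/J arrays 1 and 3, and 345 to 1338 when an array was left out. The count of called genes in the other cell cycle lists (2) was 1 with quantile normalization, 1 with no intensity trend, 0 with no filter (14 at an unadjusted p under 0.05), 9 with array weights, 0 without A/J arrays 1 and 3 (8 unadjusted), and 0 to 3 when an array was left out. The median difference of the members stayed between -0.11 and 0.15 except without A/J arrays 1 and 3, where it was -0.22. Both A/J arrays were left out together because they carry the most muscle signal, and the cause of these changes was not tested.

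The titles of A/J and DBA/2J arrays 2, and of arrays 3, share a number. Their deviations correlated by -0.26 and 0.04, against -0.26 to 0.20 for the other pairs. With 3 arrays per strain these correlations cannot decide whether the numbers pair the arrays, and the main fit used no pairing. The 3′ to 5′ ratios of actin were alike across strains, 5.87 and 5.31 on arrays 2 and 2.36 and 2.38 on arrays 3, and also 3.43 and 3.39 on arrays 1, whose titles share no number. What the number stands for is not given, and whether it marks shared handling was not tested. A fit with that number as a fixed replicate block leaves 1 residual degree of freedom. In it, 0 probe sets, 0 member probe sets and 0 genes of the other lists were called (1955, 2 and 4 at an unadjusted p under 0.05). The members' median there was -0.08. With the number as a random block instead, 848 probe sets, 1 member probe set and 2 genes of the other lists were called. The member probe set was that of Mcm6 (log2 -1.68, limma adjusted p = 0.0117). That fit put the correlation within blocks at -0.035. Of 269 further values for single genes, 265 kept their side of the threshold and 4 newly passed it; 21 uncalled values changed sign. None of the genes behind these values was called in the main fit, so no call could be lost, and the tally says little about stability. The called Mcm6 probe set is not among them, and following it was decided after its value was seen. Dim probe sets limit the list: 8 of its genes have no tested value.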

Other observations

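The Mcm6 gene lies next to Ubxn4, Lct, Dars and Cxcr4, the protein-coding genes nearest to it on both sides in the RefSeq table. Ubxn4 had 3 tested probe sets with log2 differences of -0.20 to -0.01, of which the brightest had a limma adjusted p of 0.92. Cxcr4, a chemokine receptor, read 154.4, 256.1 and 291.6 in A/J and 96, 108.3 and 146.4 in DBA/2J. Every DBA/2J array was lower, with a log2 difference of -0.89, but it did not pass the test (limma adjusted p = 0.17). Lct had no tested probe set and Dars none named for it alone.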
